A study of Mus musculus with 24 samples.

Results

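The EGF receptor, its relatives ERBB2 and ERBB3, the hepatocyte growth factor receptor MET, and the inhibitors ERRFI1 and LRIG1 were followed in polysome-associated RNA of mouse liver. The members were chosen by gene symbol, and 6 of 6 were found among the 52636 genes of the count files, which are listed by Ensembl identifier. All 6 passed the filter on low counts, which left 15490 genes to test. Messenger RNA carrying several ribosomes was sequenced from livers of C57BL/6 mice aged 5 months. Mice under calorie restriction (CR) received a diet reduced by 30% from the age of 2 months, for 3 months, and the other mice ate ad libitum (AL). Livers were collected at zeitgeber times (ZT) 2, 6, 10, 14, 18 and 22 h, with 2 libraries in each of 6 CR groups and 6 AL groups. Neither the sex of the mice nor the feeding hours of the restricted ones were stated in the labels.

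Receptors of the ERBB family are tyrosine kinases of the cell surface that pair up when a ligand of the EGF or neuregulin type binds, and then drive the RAS-MAPK and PI3K pathways. Hepatocytes carry much EGF receptor, which serves liver growth and regeneration together with MET, and the growth hormone axis is known to influence its amount in mouse liver. ERRFI1, also called MIG6, binds the kinase domain of active ERBB receptors and shuts it off, and is itself induced by the pathway, while LRIG1 sends ERBB receptors and MET to degradation.

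Each library held between 13.8 and 60.8 M counted reads (M, mega), of which 1.02% to 62.2% fell on ribosomal RNA features. Levels are given as CPM, counts in tested genes brought to a common library size of 1 M and corrected for composition. Hepatocyte markers summed to 39800 to 90300 CPM in CR libraries and 30100 to 70600 CPM in AL libraries, with none of 6 called between the diets. The labels do not say that the libraries of a group came from separate animals, so the errors measure the spread between libraries, which may be partly technical. Total RNA was not analysed here, so the amount of a transcript and its loading onto polysomes cannot be told apart, and neither can fewer cells of a type and less RNA per cell. The contrast of the diets was known when the genes were chosen. Their diet differences are therefore given as a description, and tests are given for time of day and for other genes of the pathway.

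Egfr (ENSMUSG00000020122.16, GRCm38 chromosome 11, 16752203 to 16918158, plus strand) encodes the receptor for EGF, TGF-alpha, amphiregulin and related ligands. It was lower in CR than in AL at every time of day. In CR libraries the level ran from 15.7 CPM over a median of 30.8 CPM to 105 CPM, and in AL libraries from 64.7 CPM over a median of 170 CPM to 480 CPM. Of the 12 CR libraries, 11 lay below the lowest AL library, a separation whose share among all tested genes was not counted.

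The stretch of 250 bases before the annotated Egfr start is shown because Egfr was the member with the widest gap between the diets. It comes from the RefSeq promoter table for GRCm38.p6, plus strand, at chr11:16751953-16752202, and holds no annotated exon. Capitals mark the match to the SP1 motif GGGCGG, which lies on the opposite strand, 9 bases before the start.
Egfr promoter: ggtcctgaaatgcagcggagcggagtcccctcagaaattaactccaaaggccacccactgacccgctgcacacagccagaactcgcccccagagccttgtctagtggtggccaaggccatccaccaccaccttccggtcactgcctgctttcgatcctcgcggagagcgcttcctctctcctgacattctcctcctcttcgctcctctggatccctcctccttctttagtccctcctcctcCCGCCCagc
The SP1 letters are common, being found in 35.7% of the 32851 promoter windows of 300 bases in that table. No match in the Egfr window was found for the STAT motif TTCNNNGAA (8.3% of windows), the E-box CACGTG (7.15%), the nuclear receptor half-site AGGTCA (16.3%), the D-box TTATGTAA (0.938%), the forkhead motif TGTTTAC (3.65%) or the AP-1 motif TGANTCA (7.81%). Both strands were searched, and a match or its absence describes these letters only.

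Over the day, Egfr in CR libraries stood at 26.3 and 35.4 CPM at ZT2, 28.8 and 60.0 CPM at ZT6, 21.6 and 105 CPM at ZT10, 32.7 and 50.4 CPM at ZT14, 15.7 and 39.7 CPM at ZT18, and 17.5 and 17.7 CPM at ZT22. In AL libraries it stood at 64.7 and 204 CPM at ZT2, 110 and 218 CPM at ZT6, 119 and 309 CPM at ZT10, 134 and 345 CPM at ZT14, 86.5 and 252 CPM at ZT18, and 135 and 480 CPM at ZT22. Both CR libraries lay below both AL libraries at all 6 time points, as they did for 1.01% of tested genes. By group mean, all 6 CR groups, from 17.6 CPM at ZT22 to 63.1 CPM at ZT10, stood below all 6 AL groups, from 134 CPM at ZT2 to 308 CPM at ZT22. Neighbours in that order within a diet were no further apart than the libraries of a group, which differed by up to 4.85-fold in CR (ZT10) and by 1.99-fold to 3.55-fold in AL.

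Averaged over the 6 time points, the log2 fold change of Egfr, CR over AL, was -2.51 ± 0.32 (± SE), which is a 5.68-fold higher level in AL. Egfr ranked 366 of 15490 genes by the size of this change, and 183 genes had a change as low or lower. At a false discovery rate of 0.05 in edgeR's quasi-likelihood test, this contrast called 12.7% of all genes tested, 5.6% higher and 7.05% lower in CR. The change was -2.12 at ZT2, -1.88 at ZT6, -1.76 at ZT10, -2.53 at ZT14, -2.61 at ZT18 and -4.13 at ZT22, each with an SE of 0.76 to 0.84. The AL libraries of ZT22 are labelled 2C and 2d, with none numbered 1, and the labels do not say whether they share an origin. The interaction of diet and time was not called for Egfr (adjusted p = 0.744 in edgeR's quasi-likelihood test, Benjamini-Hochberg adjusted), but was called with no filter on low counts (adjusted p = 0.0250).

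Transcripts of other kinds also differed between the diets, beside calls for 5.6% of all tested genes as higher and 7.05% as lower in CR. The lists of such genes were chosen with earlier results of these data known. Genes known to be higher in male than in female liver, such as Hsd3b5 and Slco1a1, summed to 292 to 7580 CPM in CR libraries and 5630 to 25800 CPM in AL libraries, and 10 of 10 were lower in CR. Of the female-biased genes, 9 of 9 tested were higher in CR, with sums of 16.0 to 1290 CPM against 2.76 to 16.2 CPM in AL libraries. The libraries CR ZT6 2 and CR ZT18 2 held 7410 and 7580 CPM of male-biased transcripts, within the AL range, and 16.0 and 384 CPM of female-biased ones. Their Egfr levels of 60.0 and 39.7 CPM were below every AL library and above their partner libraries. Those partners, CR ZT6 1 and CR ZT18 1, held 28.8 and 15.7 CPM of Egfr and 856 and 841 CPM of male-biased transcripts. The highest Egfr level in CR, 105 CPM, came from CR ZT10 2, with 420 CPM of male-biased and 1220 CPM of female-biased transcripts. Its partner, CR ZT10 1, held 21.6 CPM of Egfr, 564 CPM of male-biased and 671 CPM of female-biased transcripts. Without CR ZT6 2 and CR ZT18 2 the log2 fold change of Egfr was -2.75. The part of sex-biased transcription in the Egfr difference was not tested.

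Kupffer cells are the macrophages that reside in liver, and 7 of 7 of their markers were lower in CR, beside 7.05% of all tested genes. Their markers summed to 61.6 to 101 CPM in CR libraries and 105 to 405 CPM in AL libraries. None of these markers was at 0 in a library. Lymphocyte markers were lower for 3 of 4 tested genes, with sums of 3.85 to 18.1 CPM in CR libraries and 9.24 to 38.7 CPM in AL libraries. Acute phase transcripts summed to 2770 to 5780 CPM in CR libraries and 2100 to 39500 CPM in AL libraries, and 3 of 8 were lower in CR. The library with 39500 CPM, AL ZT22 2C, was also the one with the highest Egfr level, 480 CPM. Without it and AL ZT10 1 the log2 fold change of Egfr was -2.40. AL ZT10 1 held 8310 CPM of acute phase transcripts and 119 CPM of Egfr. AL ZT14 2, which stayed in that fit, held 8790 CPM and 345 CPM. Leaving out libraries in this way does not test the part of these cells and transcripts in the Egfr difference, which was not tested.

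**Figure D1:**
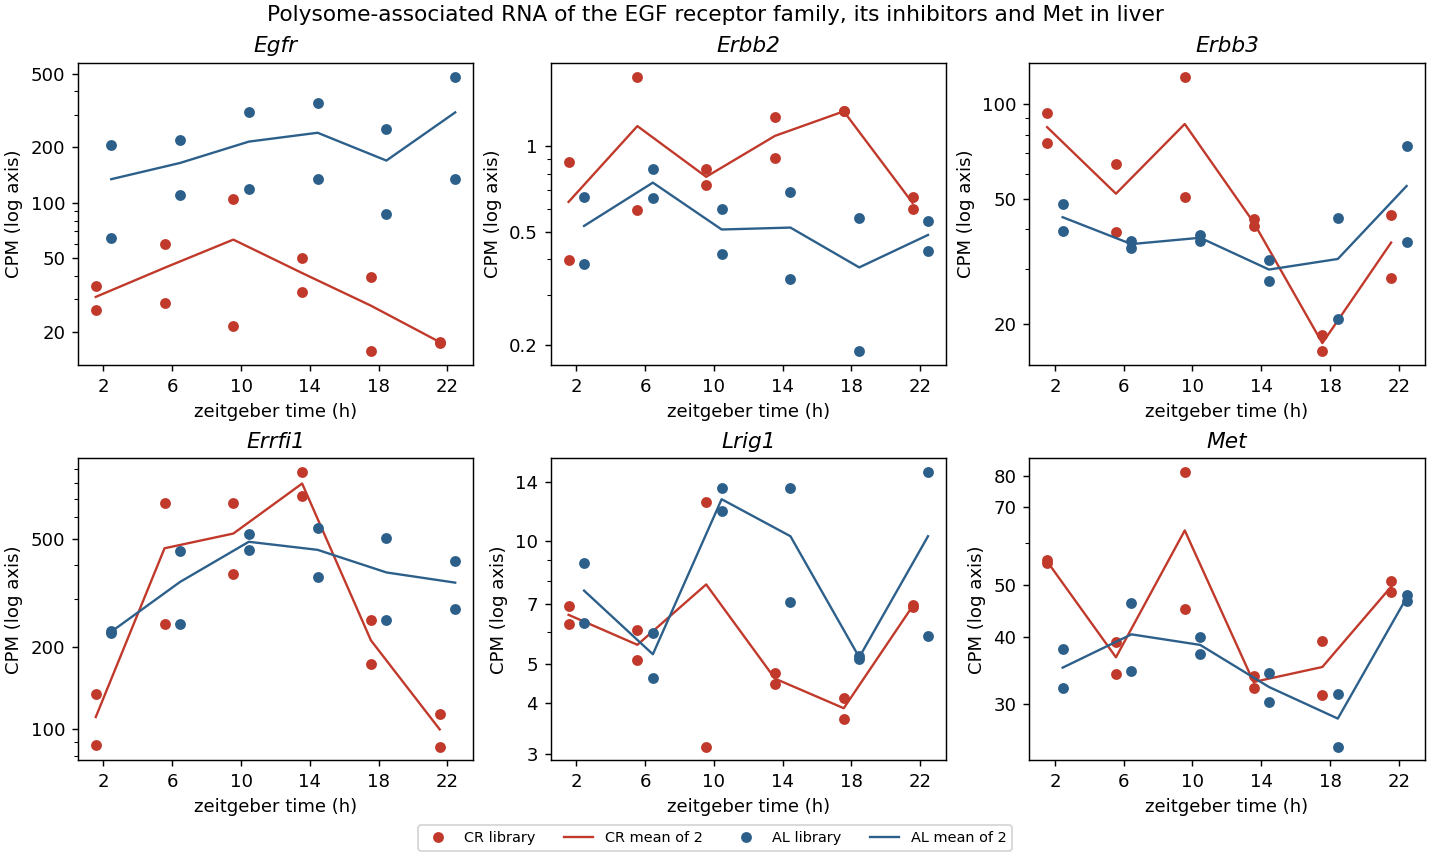
Level of each gene in CPM (log axis, a scale per gene) against zeitgeber time in hours, CR in red and AL in blue. Points are single libraries and lines join the means of 2 libraries per group. Egfr in CR lies below AL at all 6 times, and the CR curve of Errfi1 runs from group means of 111 CPM at ZT2 over 796 CPM at ZT14 to 100 CPM at ZT22.

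Erbb2 (ENSMUSG00000062312.5, chromosome 11, 98412470 to 98437716, plus strand) encodes the receptor that binds no known ligand and serves as the preferred partner of the others, and it is known to be scarce in adult hepatocytes of mouse and rat. It was the member with the fewest reads, 5 to 112 counts in CR libraries and 3 to 34 counts in AL libraries, so counting error alone is large. The level ran from 0.397 CPM over a median of 0.856 CPM to 1.76 CPM in CR libraries, and from 0.190 CPM over a median of 0.553 CPM to 0.831 CPM in AL libraries. CR lay above AL without overlap at ZT10, ZT14, ZT18 and ZT22, and 5.8% of tested genes did so at 4 or more time points. The log2 fold change was 0.79 ± 0.30 on average, with 1.76 ± 0.72 at ZT18, where both CR libraries had 1.33 CPM and the AL libraries 0.190 and 0.560 CPM. At ZT2 and ZT6 the libraries of the diets overlapped. Of its exon bases, 9 are shared with Mien1 on the opposite strand, and reads there cannot be assigned because the libraries carry no strand.

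Bile duct cells of human liver are known to express ERBB2. Cholangiocyte markers summed to 18.5 to 50.8 CPM in CR libraries and 28.9 to 116 CPM in AL libraries, with none of 5 tested called, and Cftr, which was too low to test, was at 0 in several libraries. Endothelial markers summed to 58.1 to 134 CPM in CR libraries and 59.3 to 135 CPM in AL libraries. Of these 6 markers 1 was higher and 1 lower, beside 5.6% and 7.05% of all tested genes. The part of these cells in the level of Erbb2 was not tested.

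Erbb3 (ENSMUSG00000018166.8, chromosome 10, 128567523 to 128589652, minus strand) encodes a neuregulin receptor whose own kinase is nearly inactive and which recruits PI3K through its partner. Its diet difference was positive from ZT2 to ZT14 and negative at ZT18 and ZT22. In CR libraries Erbb3 stood at 75.0 and 93.9 CPM at ZT2, 39.3 and 64.5 CPM at ZT6, 50.7 and 122 CPM at ZT10, 40.9 and 43.2 CPM at ZT14, 16.4 and 18.4 CPM at ZT18, and 28.1 and 44.4 CPM at ZT22. In AL libraries it stood at 39.4 and 48.0 CPM at ZT2, 35.0 and 36.7 CPM at ZT6, 36.8 and 38.5 CPM at ZT10, 27.5 and 32.0 CPM at ZT14, 20.8 and 43.6 CPM at ZT18, and 36.4 and 73.4 CPM at ZT22. Both CR libraries lay above both AL libraries from ZT2 to ZT14 and below them at ZT18, while the diets overlapped at ZT22. Of all tested genes, 8.25% had no overlap, in either direction, at 5 or more time points. The lowest of the 12 group means was that of CR at ZT18, 17.4 CPM, below AL at ZT14 with 29.8 CPM, and the highest were those of CR at ZT10 and ZT2, 86.4 and 84.4 CPM, which did not differ beyond their spread.

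The log2 fold change of Erbb3 was 0.95 at ZT2, 0.53 at ZT6, 1.20 at ZT10, 0.50 at ZT14, -0.88 at ZT18 and -0.60 at ZT22, with an SE of 0.41 to 0.42 at each, and 0.28 ± 0.17 on average. The interaction of diet and time was not called (adjusted p = 0.509 in edgeR's quasi-likelihood test, Benjamini-Hochberg adjusted), though it was with no filter on low counts (adjusted p = 0.0224). A 24 h cosine fitted to the CR libraries had an amplitude of 0.96 ± 0.23 log2 units from mean to peak, a peak-to-trough ratio of 3.77 and a peak at ZT 6.3. That fitted peak is not an observed high, as the CR group means were 84.4 CPM at ZT2, 51.9 CPM at ZT6 and 86.4 CPM at ZT10. The CR rhythm missed the threshold (adjusted p = 0.0602), as did that in AL, with an amplitude of 0.32 ± 0.20 (adjusted p = 0.728), by edgeR's quasi-likelihood test. The CR rhythm of Erbb3 did pass without any one of AL ZT18 2, AL ZT22 2C, CR ZT6 1 or CR ZT6 2, with adjusted p-values of 0.0481, 0.0466, 0.0410 and 0.00956 by edgeR's quasi-likelihood test. It was not called in 26 of 33 alternatives, and with no composition factor its adjusted p was 0.400 by the same test.

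Met (ENSMUSG00000009376.15, chromosome 6, 17463800 to 17573980, plus strand) encodes the receptor for hepatocyte growth factor. It was the steadiest of the 6 genes, with a spread within groups of 0.23 log2 units, against 0.46 for Erbb3 and 0.95 for Egfr. The level ran from 31.2 CPM over a median of 42.2 CPM to 81.3 CPM in CR libraries, and from 25.0 CPM over a median of 36.0 CPM to 48.0 CPM in AL libraries. At ZT2, ZT10 and ZT22 both CR libraries lay above both AL libraries, and the diets overlapped at the other times. Separation in that direction at 3 or more time points was seen for 15.2% of tested genes. The log2 fold change was 0.27 ± 0.12 on average, and largest at ZT2 with 0.66 ± 0.29 and at ZT10 with 0.71 ± 0.29. The highest level, 81.3 CPM, came from CR ZT10 2, which also held the highest levels of Erbb3, 122 CPM, and, among the CR libraries, of Egfr, 105 CPM, and Lrig1, 12.5 CPM. Its partner library, CR ZT10 1, held 45.2 CPM of Met, 50.7 CPM of Erbb3, 21.6 CPM of Egfr and 3.13 CPM of Lrig1. Stellate cell and fibroblast markers summed to 155 to 288 CPM in CR libraries and 72.3 to 308 CPM in AL libraries. Of these markers 3 of 6 were higher in CR, beside 5.6% of all tested genes, and their part in the level of Met was not tested.

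Errfi1 (ENSMUSG00000028967.10, chromosome 4, 150853919 to 150868892, plus strand), the feedback inhibitor of the ERBB kinases, had a daily rhythm in CR that passed the test. In CR libraries it stood at 87.9 and 135 CPM at ZT2, 244 and 678 CPM at ZT6, 370 and 675 CPM at ZT10, 715 and 876 CPM at ZT14, 173 and 251 CPM at ZT18, and 86.5 and 114 CPM at ZT22. In AL libraries it stood at 226 and 229 CPM at ZT2, 243 and 452 CPM at ZT6, 456 and 519 CPM at ZT10, 361 and 548 CPM at ZT14, 251 and 502 CPM at ZT18, and 276 and 413 CPM at ZT22. The CR groups held both ends of the order, with 100 and 111 CPM at ZT22 and ZT2 as the lowest group means and 796 CPM at ZT14 as the highest. All AL groups lay between them, from 228 CPM at ZT2 to 487 CPM at ZT10, and most neighbours among these did not differ beyond their spread.

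The fitted rhythm of Errfi1 in CR had an amplitude of 1.58 ± 0.22 log2 units, a peak-to-trough ratio of 8.95 and a peak at ZT 11.2 (adjusted p = 7.56e-04 in edgeR's quasi-likelihood test, Benjamini-Hochberg adjusted). It was among the 1.94% of tested genes called rhythmic in CR, and the only one of the 6 members. In AL the fitted amplitude was 0.44 ± 0.21 log2 units with a peak at ZT 13.1, and the rhythm was not called (adjusted p = 0.604). In AL 0.42% of tested genes were called rhythmic, and none of the 6 members. The difference between the CR and AL curves of Errfi1 did not pass either (adjusted p = 0.550, unadjusted p = 0.00156), and so the 2 curves were not shown to differ, although the difference was called with no filter on low counts (adjusted p = 0.0240). Of all tested genes, 0% were called for a rhythm difference by edgeR, with 1005 genes at an unadjusted p under 0.05, and DESeq2 called 6.

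The sign of the diet difference of Errfi1 changed over the day. At ZT2 and ZT22 both CR libraries lay below both AL libraries, at ZT14 above them, and 3.91% of tested genes were likewise lower at ZT2 and higher at ZT14. The log2 fold change was -1.03 at ZT2, 0.41 at ZT6, 0.10 at ZT10, 0.81 at ZT14, -0.83 at ZT18 and -1.78 at ZT22, with an SE of 0.47 to 0.48 at each. On average over the day it was -0.39 ± 0.19. The interaction of diet and time was not called (adjusted p = 0.490, unadjusted p = 0.00693, edgeR's quasi-likelihood test). Across all tested genes 0% were called for this interaction, with 1337 at an unadjusted p under 0.05, and DESeq2 called 188, Errfi1 among them (adjusted p = 0.0397). With no filter on low counts edgeR called it too (adjusted p = 0.00281).

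**Figure D2:**
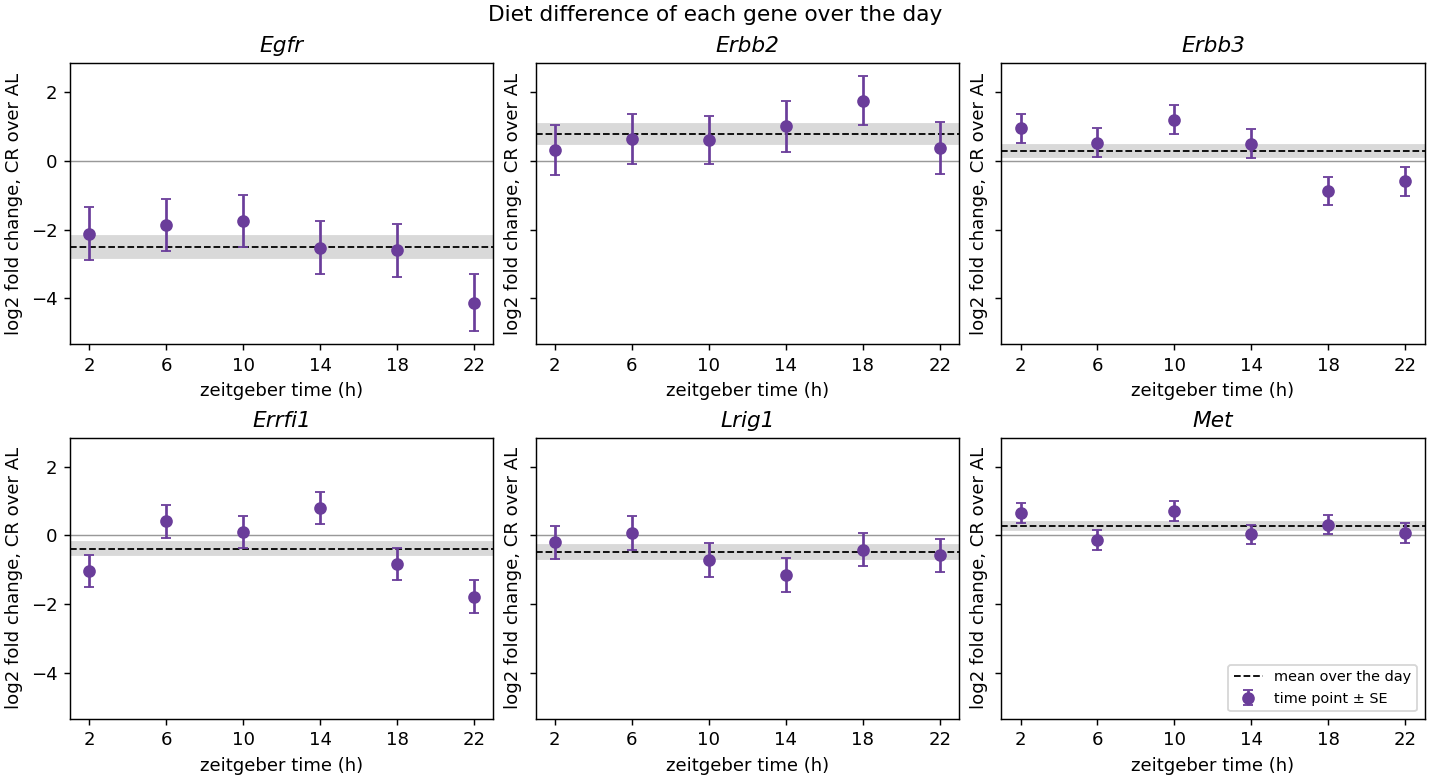
Log2 fold change, CR over AL, of each gene at each zeitgeber time in hours, with points for the fitted difference at a time, bars for its SE, and a dashed line with grey band for the mean over the day ± SE. Egfr stays below 0 at every time, from -1.76 at ZT10 to -4.13 at ZT22, whereas Errfi1 and Erbb3 cross 0.

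The promoter of Errfi1 is shown because its level had the widest daily range. RefSeq lists 2 windows for the gene, and the 250 bases below come before the second, at chr4:150854820-150855069 on the plus strand of GRCm38.p6, with no annotated exon among them. These bases lie inside the annotated span of the gene, which begins upstream of them. Capitals mark 3 matches to the SP1 motif GGGCGG on the opposite strand, 152, 97 and 93 bases before the start, of which the last 2 overlap, and 1 match to the cyclic AMP response element TGACGTCA, 51 bases before it.
Errfi1 promoter: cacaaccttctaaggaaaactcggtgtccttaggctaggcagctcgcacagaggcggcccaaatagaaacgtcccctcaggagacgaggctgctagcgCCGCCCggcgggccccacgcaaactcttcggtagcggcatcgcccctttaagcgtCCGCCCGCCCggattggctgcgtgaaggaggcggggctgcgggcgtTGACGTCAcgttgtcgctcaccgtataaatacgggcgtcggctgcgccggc
The cyclic AMP response element was added to the motifs after these letters had been read, and 1.79% of promoter windows hold it. The other window of Errfi1 held 1 nuclear receptor half-site, which lies after the start of that window's transcript, and no match to the other motifs. Of the remaining members with a window, Met held 3 SP1 matches, an E-box and an AP-1 motif, Lrig1 held 2 SP1 matches, and Erbb2 held none of the motifs.

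Lrig1 (ENSMUSG00000030029.14, chromosome 6, 94604529 to 94700158, minus strand), whose product lowers the amount of ERBB receptors and MET at the cell surface, was low and mostly lower in CR. The level ran from 3.13 CPM over a median of 5.57 CPM to 12.5 CPM in CR libraries, and from 4.62 CPM over a median of 6.70 CPM to 14.8 CPM in AL libraries. Both CR libraries lay below both AL libraries at ZT14, with 4.45 and 4.75 CPM in CR and 7.09 and 13.5 CPM in AL, and at ZT18, with 3.66 and 4.12 CPM in CR and 5.13 and 5.24 CPM in AL. At the other 4 times the diets overlapped, and 39.3% of tested genes lay lower in CR without overlap at 2 or more time points. The log2 fold change was -0.49 ± 0.20 on average and -1.15 ± 0.50 at ZT14. Of the exon bases of Lrig1, 2.58% are shared with Slc25a26 on the opposite strand, and reads there cannot be assigned.

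None of the other members had a called rhythm (edgeR's quasi-likelihood test, Benjamini-Hochberg adjusted). For Egfr the amplitude was 0.80 ± 0.30 log2 units in CR (adjusted p = 0.272, and 0.0106 with no filter on low counts) and 0.28 ± 0.31 in AL (adjusted p = 0.896). Erbb2, Lrig1 and Met had amplitudes of 0.26 to 0.33 log2 units in CR, with adjusted p-values of 0.617 to 0.765, and of 0.19 to 0.32 in AL, with adjusted p-values of 0.832 to 0.876. Their interaction of diet and time had adjusted p-values of 0.720 to 0.907.

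Levels of different genes can be compared only per length, here as CPM per kilobase of merged exons. Merged exons take in every annotated transcript and come to 11.3 kb for Egfr, 6.02 kb for Erbb3 and 7.68 kb for Met. The order of the genes and the ratios between them depend on these lengths, and which transcripts were present was not examined. The place of Egfr among the receptors differed between the diets. Errfi1 was the highest of the 6 genes in every library of both diets and Erbb2 the lowest. In CR the median level per kilobase was 69.1 for Errfi1, 7.29 for Erbb3, 5.50 for Met, 2.72 for Egfr, 0.998 for Lrig1 and 0.164 for Erbb2. In AL it was 108 for Errfi1, 15.0 for Egfr, 6.11 for Erbb3, 4.68 for Met, 1.20 for Lrig1 and 0.106 for Erbb2. Egfr stood above Erbb3 in 1 of 12 CR libraries and in 11 of 12 AL libraries, and above Met in 2 of 12 CR libraries and in 12 of 12 AL libraries. Erbb3 and Met lay close together, with Erbb3 higher in 9 of 12 CR libraries and 10 of 12 AL libraries. The ratio of Errfi1 to Egfr, inhibitor to receptor transcript per kilobase, ran from 10.5 over a median of 23.7 to 84.7 in CR libraries and from 2.72 over a median of 6.37 to 13.0 in AL libraries.

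**Figure D3:**
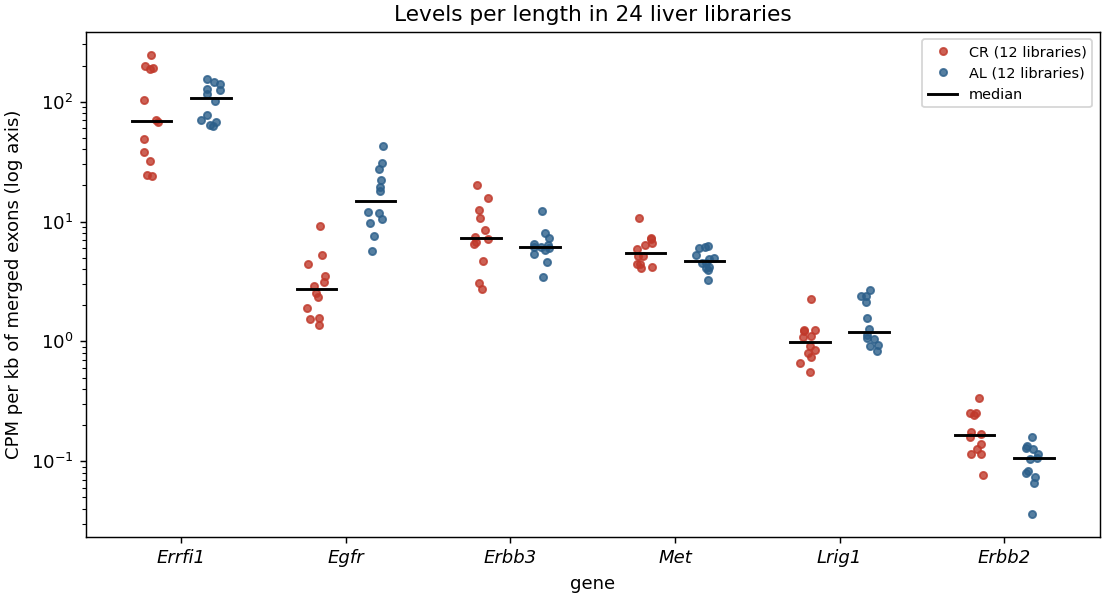
Level of each gene in CPM per kilobase of merged exons (log axis) in 12 CR libraries (red) and 12 AL libraries (blue), with the median as a bar. Egfr is the fourth gene in CR, with a median of 2.72, and the second in AL, with a median of 15.0.

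How the genes ran together over the 12 group means was described by Pearson's r, which has no test here because all genes share the same libraries and scaling. After each diet's mean was taken off, the closest pairs of members were Egfr with Errfi1 (r = 0.74) and Erbb3 with Met (r = 0.68). Each member was also set against 5378 other genes of at least 10 CPM (5379 for Erbb2 and Lrig1). Picking the highest r from so many genes over 12 group means gives high values by itself. With each diet's mean taken off, the genes of most similar course were Palmd, Aox3 and Fads2 for Egfr, with r of 0.887, 0.875 and 0.866. Aox3 is an aldehyde oxidase of liver and Fads2 a desaturase of polyunsaturated fatty acids. For Errfi1 they included Cdip1 and Cebpb, with r of 0.947 and 0.922, and Cebpb encodes a leucine zipper transcription factor. Ctnna1, Cdh2 and Ptprf, with r of 0.962, 0.934 and 0.933, ran closest to Met, and they encode alpha-catenin, a cadherin and a receptor phosphatase of cell junctions. Klhl24, Cast and Dennd4a, with r of 0.948, 0.933 and 0.925, ran closest to Erbb3, Zfp106, Taok2 and Zcchc2, with r of 0.910, 0.903 and 0.902, to Lrig1, and Hsd3b5, Phlda1 and Rras2, with r of 0.790, 0.757 and 0.752, to Erbb2.

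With the diet means left in, the genes closest to Egfr were Aox3 (r = 0.985), C4bp (0.958) and C8b (0.940), the last 2 of which belong to the complement system. Cast, Sash1 and Xrn2 were closest to Erbb3, with r of 0.936, 0.903 and 0.900. Ctnna1, Stat3 and Eif2s3x were closest to Met, with r of 0.968, 0.932 and 0.924. Trib1, Rab3ip and Stbd1 were closest to Errfi1, with r of 0.888, 0.873 and 0.861. For Lrig1 they were Arf3, Slc38a10 and Prrc2b (0.881, 0.849 and 0.847), and for Erbb2 Zfp281, Got1 and Pla2g16 (0.824, 0.821 and 0.819).

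Around the 6 genes, 83 genes of the pathway in 9 lists were examined on the diet average, of which 76 could be tested. In edgeR's quasi-likelihood test, Benjamini-Hochberg adjusted, 4 were higher and 4 lower in CR. Neither is a larger share than the 5.6% and 7.05% of all tested genes, so the calls below describe single genes and not the pathway. Their median log2 fold change was 0.02, beside -0.02 over all tested genes.

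Among 11 ligands of ERBB receptors, 6 could be tested, and 1 rose and 1 fell. Tgfa, a ligand of the EGF receptor made by hepatocytes, fell by 0.65 on the log2 scale (SE 0.18, adjusted p = 0.0194), with 3.59 to 10.0 CPM and a median of 6.33 CPM in CR libraries and 5.51 to 15.0 CPM and a median of 10.1 CPM in AL libraries. Nrg4, a neuregulin that binds ERBB4, rose by 0.65 ± 0.19 on the log2 scale (adjusted p = 0.0264). It was called rhythmic in CR, with an amplitude of 1.81 ± 0.21 log2 units and a peak at ZT 13.2 (adjusted p = 1.43e-04, edgeR's quasi-likelihood test). Its CR libraries held 2.15 and 3.73 CPM at ZT2, 36.2 and 39.4 CPM at ZT14, and 2.65 and 2.91 CPM at ZT22, while AL libraries held 1.97 and 3.41 CPM at ZT2, 7.30 and 14.6 CPM at ZT14, and 1.41 and 4.21 CPM at ZT22. In AL the amplitude was 1.03 ± 0.21 (adjusted p = 0.0515), and the rhythm difference was not called (adjusted p = 0.766). The call of Tgfa was lost without AL ZT14 1 or CR ZT22 2 (adjusted p = 0.0511 and 0.0589, edgeR), without AL ZT22 2C and AL ZT10 1 together (0.0779), and with no composition factor (0.117). That of Nrg4 was lost without AL ZT2 2, AL ZT10 1, AL ZT22 2C, CR ZT2 1 or CR ZT18 1, with adjusted p-values of 0.0548 to 0.0687 by edgeR, without AL ZT22 2C and AL ZT10 1 together (0.109), and with no composition factor (0.0980). Egf, Hbegf, Btc and Nrg1 had under 1 CPM on average, and Areg, Ereg, Epgn, Nrg2 and Nrg3 were too low to test.

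Of the other receptors and LRIG proteins, none of 4 was called. Erbb4, the neuregulin receptor with an active kinase, averaged 1.08 ± 0.688 CPM in CR libraries and 1.78 ± 1.04 CPM in AL libraries (SD, n = 12 each), with a log2 fold change of -0.64 ± 0.27. Lrig2 and Lrig3 had log2 fold changes of 0.27 ± 0.20 and 0.17 ± 0.18. None of 6 genes of the MET ligand and its activation was called. Hgf, the ligand of MET, ran from 0.143 CPM to 11.7 CPM in CR libraries and from 0.880 CPM to 5.39 CPM in AL libraries. The proteases Hgfac and Hpn, which cut the precursor of HGF, had log2 fold changes of -0.23 ± 0.15 and -0.19 ± 0.15, and their inhibitor Spint2 had 0.05 ± 0.13. None of 4 genes of ligand release was called either.

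Inside the cell, Map2k1, which encodes the kinase MEK1 above ERK, was the called gene among 16 adaptors and members of the RAS-MAPK relay. It fell by 0.52 on the log2 scale (SE 0.12, adjusted p = 0.00530, edgeR's quasi-likelihood test), with 10.8 to 17.7 CPM in CR libraries and 16.7 to 25.1 CPM in AL libraries. For Map2k1, 11 of the 12 CR libraries lay below the lowest AL library, and the share of all tested genes with such a separation was not counted. None of 8 genes of the PI3K and PLC arm and none of 13 genes of receptor ubiquitination, traffic and phosphatases was called, Cbl and Cblb included.

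Of 11 tested feedback inhibitors of RAS-MAPK, 2 rose and 1 fell. Spry2, a Sprouty protein that blocks RAS activation, rose by 1.45 ± 0.33 on the log2 scale (adjusted p = 0.00530), with 0.733 to 2.51 CPM in CR libraries and 0.0951 to 1.15 CPM in AL libraries. Its counts were low, from 2 to 65. Spry1 rose by 0.62 ± 0.20 (adjusted p = 0.0437), and Spred2 fell by 0.59 (SE 0.19, adjusted p = 0.0452). These last calls stood close to the threshold: Spry1 was no longer called in 23 of 34 alternative settings and Spred2 in 27 of 34. The phosphatase Dusp6, a target and brake of ERK, had a log2 fold change of 0.14 ± 0.21.

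Of 8 tested immediate early targets, 1 rose and 1 fell. Ier3 rose by 0.94 ± 0.28 on the log2 scale (adjusted p = 0.0286, edgeR's quasi-likelihood test), and that call was lost in 12 of 33 settings. Egr1, a transcription factor induced by ERK, fell by 1.32 (SE 0.38, adjusted p = 0.0267), with 0.159 to 6.43 CPM in CR libraries and 1.20 to 50.9 CPM in AL libraries. The highest value came from AL ZT22 2C, and without that library the log2 fold change was -0.58 (adjusted p = 0.217, edgeR). The call of Egr1 was also lost without any one of AL ZT6 1, AL ZT14 1, AL ZT18 2, CR ZT2 1, CR ZT14 2, CR ZT18 1 or CR ZT22 2, with adjusted p-values of 0.0525 to 0.0853 by edgeR, without AL ZT22 2C and AL ZT10 1 together (0.257), and in an additive model (0.153). Atf3, a stress-induced member of this list, was called rhythmic in CR, with an amplitude of 1.40 ± 0.28 log2 units and a peak at ZT 16.7 (adjusted p = 0.0174), and not in AL (adjusted p = 0.815). Its rhythm difference was not called (adjusted p = 0.568).

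**Figure D4:**
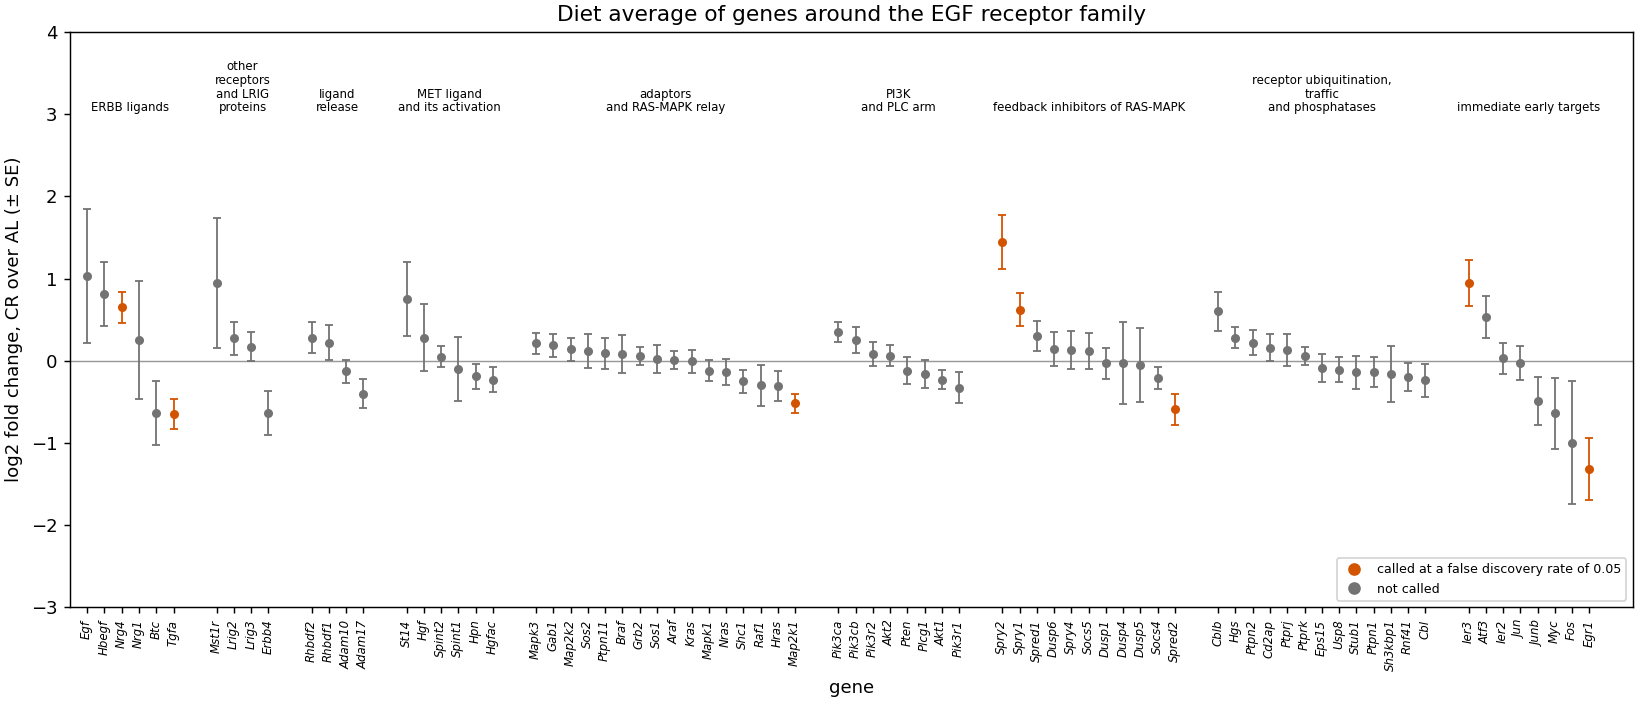
Log2 fold change, CR over AL, averaged over the day, of 76 tested genes in 9 lists around the receptors, with bars for the SE. Called genes are orange, and the 8 of them lie on both sides of 0, with Spry2 highest at 1.45 and Egr1 lowest at -1.32.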

How the data were processed

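Polysome-associated RNA, selected by its poly(A) tail and sequenced without strand per the labels, was measured in 24 mouse liver libraries. The authors deposited raw read counts per gene, and per the submitters' processing notes FastQC, HTSeq and DESeq2 were used with genome build GRCm38.p5. Aligner and tool versions: not given in the sources used here. Symbols and exon lengths came from GENCODE M21 by Ensembl identifier, for 52489 of 52636 genes.

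The deposited counts were fitted with edgeR 4.0.16 in R 4.3.3 after TMM scaling and the filterByExpr filter, with 12 group means in 1 model, because a group has 2 libraries. The 6 CR groups were contrasted with the 6 AL groups on average, at each time point, and for their interaction. A cosine and sine of 24 h per diet gave rhythms. P-values of edgeR's quasi-likelihood test were adjusted by Benjamini-Hochberg over all 15490 tested genes, with a threshold of 0.05. Counts per library were 13.8 to 60.8 M, of which 5.64 to 59.6 M fell outside ribosomal RNA features. Precision rests on these counts and on the spread between libraries.

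The members and lists were chosen with earlier results of these data known. Named are all members, genes of the ligand, receptor and MET ligand lists with at least 1 CPM on average, up to 3 called genes of smallest p per direction in each other list, and for each member the 3 genes of highest correlation under each of 2 scalings, of which 1 is not reported here. Dusp6, Atf3, Cbl, Cblb and the genes named as low or untested are named beside it, a choice made with their values in view. RefSeq promoter windows were had for 5 of 6 members, not for Erbb3, and protein sequences were not used here. The alternatives were DESeq2 1.42.0, its size factors within edgeR, no composition factor, counts without ribosomal RNA features, no filter, a filter of 1 CPM in 12 libraries, a replicate block, an additive model, and fits without named libraries. When libraries were left out, the tested genes were kept.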

Additional observations from a re-analysis of the deposited data

Results flagged for a closer look

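For Errfi1, the diet difference at ZT14 minus that at ZT22 was 2.59 log2 units. Both CR libraries lay above both AL libraries at ZT14 (715 and 876 CPM in CR, 361 and 548 CPM in AL) and below them at ZT22 (86.5 and 114 CPM in CR, 276 and 413 CPM in AL). The pair of time points was picked for its opposite directions, and this single difference was not tested. The interaction over all 6 time points was not called (adjusted p = 0.490 in edgeR's quasi-likelihood test, Benjamini-Hochberg adjusted).

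For Erbb3, the diet difference at ZT10 minus that at ZT18 was 2.08 log2 units. Both CR libraries lay above both AL libraries at ZT10 (50.7 and 122 CPM in CR, 36.8 and 38.5 CPM in AL) and below them at ZT18 (16.4 and 18.4 CPM in CR, 20.8 and 43.6 CPM in AL). This pair was picked in the same way and not tested, and the interaction over all time points was not called (adjusted p = 0.509 by edgeR's quasi-likelihood test).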

How the results depend on the processing

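The log2 fold change of Egfr on the diet average lay between -2.76 and -2.31 in 34 alternatives. The rhythm of Errfi1 in CR was called in all 33 alternatives that gave it, with adjusted p-values of 1.75e-09 to 0.00533. The diet averages of the other members ran from 0.63 to 0.96 for Erbb2 (33 alternatives), 0.15 to 0.39 for Erbb3, -0.54 to -0.29 for Errfi1, -0.71 to -0.36 for Lrig1 and 0.19 to 0.33 for Met.

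Counts over all genes moved more. Without a composition factor, 1170 genes were called on the diet average, 507 higher and 663 lower, with 3 for the interaction, 28 for the AL rhythm, 188 for the CR rhythm, and 1 higher and 2 lower in the pathway lists. With AL ZT22 2C and AL ZT10 1 left out, the diet average called 1303 genes, 704 of them lower, the AL rhythm 40, and the lists 1 higher and 1 lower. With DESeq2 the interaction called 188 genes, the AL rhythm 270, the CR rhythm 729 and the rhythm difference 6, with adjusted p = 0.0397 for the Errfi1 interaction and 0.0115 for the Erbb3 rhythm in CR. With no low-count filter, the interaction called 709 genes, among them Egfr (adjusted p = 0.0250), Erbb3 (0.0224) and Errfi1 (0.00281). That setting called 447 AL rhythms, 1244 CR rhythms, among them Egfr (0.0106) and Erbb3 (0.00208), and 295 rhythm differences, with Errfi1 (0.0240), while the lists held 2 higher genes. The filter of 1 CPM gave the CR rhythm of Erbb3 an adjusted p of 0.0487. Without CR ZT6 2 and CR ZT18 2 the lists held 2 higher genes, and the additive model left 2 lower genes in them. The cause of these shifts was not tested.

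Leaving out single libraries gave 0 to 29 interactions, 38 to 96 AL rhythms, 161 to 590 CR rhythms, 0 to 5 rhythm differences, 1 to 4 higher and 1 to 7 lower list genes, and adjusted p-values of 0.00956 to 0.206 for the CR rhythm of Erbb3. The 29 interactions came without CR ZT6 1, the 590 CR rhythms and the 7 lower genes without CR ZT10 2.

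Over all tested genes, libraries of the same number did not deviate together between the diets. Correlations were -0.05 to 0.20 over 5 time points, so the numbers were not taken as pairs. For Egfr alone, library 2 lay above library 1 at ZT10, ZT14 and ZT18 in both diets, at ZT2 in AL, and at ZT6 and ZT22 in CR. It lay below library 1 at ZT6 in AL and at ZT2 in CR. A replicate block gave 1 interaction call, 1 rhythm difference call and 1790 calls on the diet average. Counts of Erbb2, at most 112, limit what can be said of it.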
